A study of Danio rerio with 19 samples.

Results

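The data described here are the change in the miRNA response to oncogenic Ras between 7 and 14 days post fertilization (dpf) in zebrafish larvae that carry Ras in their melanocytes. The members were chosen by sample label. They are 3 arrays from 7 dpf and 3 from 14 dpf, all on 1 slide, out of the 19 arrays of the series. On these arrays 546 of 7604 probes were designed against known miRNAs, and the other 7058 against predicted hairpins.

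The kita:Ras larvae combined the driver insertion Et(kita:Gal4TA, UAS:mCherry)hmz1 with the effector insertion Tg(UAS:eGFP-HRASV12)io006, so that Gal4 made in kita-expressing cells turns on eGFP-tagged human HRASV12. The labelled cells are melanocytes, and the notochord of this line is also fluorescent. The controls were AB wild type larvae of the same age, which carry neither the driver nor the mCherry and eGFP reporters. Each sample was RNA of whole larvae, pooled from 15 larvae at 7 dpf and from 5 at 14 dpf, with different parents for each replicate. Pool size changes with age in both channels, so age and pool size cannot be told apart. Each array carried kita:Ras RNA in the Hy3 (green) channel and its own control RNA in the Hy5 (red) channel, without a dye swap. A value is given as log2 of kita:Ras over control, and a difference as the mean log2 ratio at 14 dpf minus that at 7 dpf. In RNA of whole larvae, fewer cells of a type and less of a miRNA per cell cannot be told apart.

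miRNAs are short RNAs cut from a hairpin precursor, and they lower the output of mRNAs that pair with a short stretch near their start, called the seed. Each hairpin can release a strand from its left (5′) side and another from its right (3′) side. Usually 1 of these strands is loaded into Argonaute and accumulates, and its partner is degraded. Members of a family share the seed, and several genes can give the same mature strand.

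The strands that the results turn on are shown here as the array was designed to capture them, read from the deposited probe sequences. Each is the reverse complement of the 22 bases of the probe, in DNA letters, so its first base is that of the design and can lie next to the start given in databases. The right arms of miR-29 are shown because they carry most of the calls, and the capitals mark the longest run that all of them share.
mir-29a-1_r: cTAGCACCATTTGAAATCggtt
mir-29c_r: cTAGCACCATTTGAAATCggtc
mir-29b-1_r: TAGCACCATTTGAAATCagtgt
The right arms of miR-144 and miR-101 are shown because they moved the same way and share a run of 7 bases at the same end, which is marked in capitals and is held by 3 of the 410 known probes tested (0.732%).
mir-144_r: cTACAGTAtagatgatgtacta
mir-101a_r: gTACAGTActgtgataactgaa
miR-101b_r: TACAGTActatgataactgaag
In the remaining strands the capitals mark bases 2 to 8 of the design. They are the left arm of miR-25, both arms of miR-21-2, the right arms of miR-365-1 and miR-193b, the left arms of miR-221 and miR-222, 1 left arm of miR-124, 1 right arm of miR-9, and 3 strands with higher ratios at 14 dpf.
mir-25_l: aGCTTTGCggggtgggcagtca
mir-21-2_l: tAGCTTATcagactggtgttgg
mir-21-2_r: gGCAACAGcagtctaataggct
mir-365-1_r: tAATGCCCctaaaaatccttat
mir-193b_r: aACTGGCCcgcaaagtcccgct
mir-221_l: aCCTGGCAtacaatgtagattt
mir-222_l: tGCTCAGTagtcagtgtagatc
mir-124-2_l: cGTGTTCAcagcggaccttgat
mir-9-1_r: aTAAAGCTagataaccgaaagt
mir-210_r: cTGTGCGTgtgacagcggctaa
mir-462_l: tAACGGAAcccataatgcagct
mir-107_l: aGCTTCTTtacagtgttgtctt

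A known probe was tested when both channels were well above background on at least 2 of the 3 arrays at each age, which held for 410 probes with 301 distinct sequences. The 6 arrays were fitted with limma, and a probe was called when its p, adjusted by Benjamini-Hochberg over these 410 probes, was below 0.05 and its fold change above 1.2. By this rule 9 probes were lower at 14 dpf (2.2% of those tested) and 0 were higher. At an unadjusted p below 0.05, 109 probes were lower (26.6%) and 6 were higher (1.46%). The 3 arrays at 14 dpf all lay below the 3 at 7 dpf for 150 probes (36.6%) and all above them for 30 (7.32%). The median difference over the 410 probes was -0.10. With each array centred on the median of the tested probes that median became 0.01, and 8 probes were lower, 7 of them among the 9. The 9 calls had adjusted p between 0.0405 and 0.0469, and 0 of them passed when any 1 of the 7 dpf replicates or 14 dpf replicate 3 was left out. Row on the slide moves with age, since all 3 arrays at 14 dpf and only replicate 2 at 7 dpf lay in the second row. With row on the slide as a block 0 probes were called. In that fit the difference is the mean at 14 dpf minus 7 dpf replicate 2 alone, so it cannot separate row from that array. It was -0.65 for miR-29a-1, -0.62 for miR-29c and -0.73 for miR-144 right arm, beside -0.70, -0.66 and -0.82 in the main fit.

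The 2 ages differed in how many probes departed from the controls. At 7 dpf 26 probes were up in kita:Ras larvae (6.34%) and 1 was down (0.244%) by the same call rule applied to each age's mean ratio. At 14 dpf 22 were up (5.37%) and 104 were down (25.4%), a split that became 46 up and 83 down with each array centred on its median. The count up at 7 dpf was 15 without any 1 of the 7 dpf replicates and with row on the slide as a block. The count down at 7 dpf was 13 without 14 dpf replicate 2, 1 without 7 dpf replicate 3 and 0 without any other replicate. The count up at 14 dpf was 14 without 7 dpf replicate 1, 9 without 14 dpf replicate 1 and 0 with the row block. The count down at 14 dpf was 32 without 7 dpf replicate 1, 56 without 7 dpf replicate 3, 33 without 14 dpf replicate 1 and 0 with row on the slide as a block. With that block the fit gives each age's value in the first row. At 7 dpf this is the mean of replicates 1 and 3, and at 14 dpf no array lies there. Counts with the row block are therefore not tests of the age means. Of the 26 probes up at 7 dpf, 15 were also up at 14 dpf and 2 were down.

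**Figure D1:**
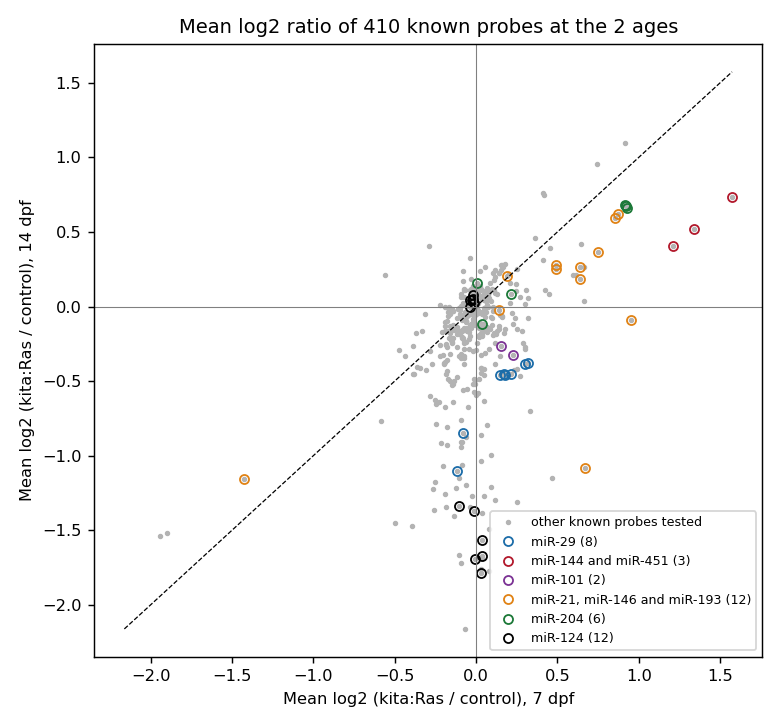
Each point is 1 of the 410 known probes tested, with its mean log2 ratio of kita:Ras over control at 7 dpf on the x axis and at 14 dpf on the y axis, and the dashed line marks equal ratios. The right arms of miR-29 lie to the right of 0 and below 0, miR-144 and miR-451 lie above 0 at both ages and under the dashed line, and the left arms of miR-124 lie near 0 on the x axis and between -1.33 and -1.78 on the y axis.

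The right arms of miR-29 turned from slightly higher than the controls at 7 dpf to lower at 14 dpf, and they account for 6 of the 9 calls. By the call rule for each age's mean ratio, 2 of the 6 probes were up at 7 dpf and all 6 were down at 14 dpf. miR-29 is known in mammals for targeting mRNAs of collagens and other matrix proteins and of DNA methyltransferases. The 6 probes carry 3 distinct sequences, so they are at most 3 measurements and not 6. The adjustment of p counted probes of 1 sequence as separate tests. With identical sequences averaged, 2 of 301 sequences over all families were called. All 3 sequences share a run of 17 bases, and those of miR-29a-1 and miR-29c differ only in their last base. Whether a probe of 1 sequence also captures the other strands was not tested.
For miR-29a-1 right arm the log2 ratio was 0.37, 0.27 and 0.31 in replicates 1 to 3 at 7 dpf, and -0.29, -0.51 and -0.34 at 14 dpf. The difference was -0.70 ± 0.08 (SE, n = 3 arrays at each age, limma adjusted p = 0.0405), a fold of 1.62, with a 95% interval from -0.89 to -0.50. miR-29c right arm went from 0.25, 0.17 and 0.21 to -0.35, -0.59 and -0.42, a difference of -0.66 ± 0.08 (SE, limma adjusted p = 0.0405). All arrays at 7 dpf lay above 0 and all arrays at 14 dpf below 0 for both strands.
The probes for miR-29b, miR-29b-1, miR-29b-2 and miR-29b-3, share 1 sequence, and their differences were -0.61, -0.62 and -0.64. The probe for miR-29a-2, which shares the sequence of miR-29a-1, gave -0.68. Over all tested probes that share a sequence with another, the differences of probes of 1 sequence had an SD of 0.05.
Among the 6 arrays the lowest ratios were those of 14 dpf replicate 2, at -0.61 for miR-29b-2 right arm. Over all replicates left out in turn, the difference of miR-29a-1 right arm lay between -0.74 and -0.63 and its adjusted p (limma) between 0.0245 and 0.220.
The left arms of miR-29 are dim. Of 6 left arm probes only miR-29a-2 and miR-29b-1 were tested, with differences of -0.77 ± 0.55 and -0.98 ± 0.48 (SE) that did not pass (limma adjusted p = 0.378 and 0.248). Their 14 dpf replicate 2 ratios were -2.09 and -2.22, far below the other 2 arrays at that age, and without that array the differences were -0.15 and -0.42.

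**Figure D2:**
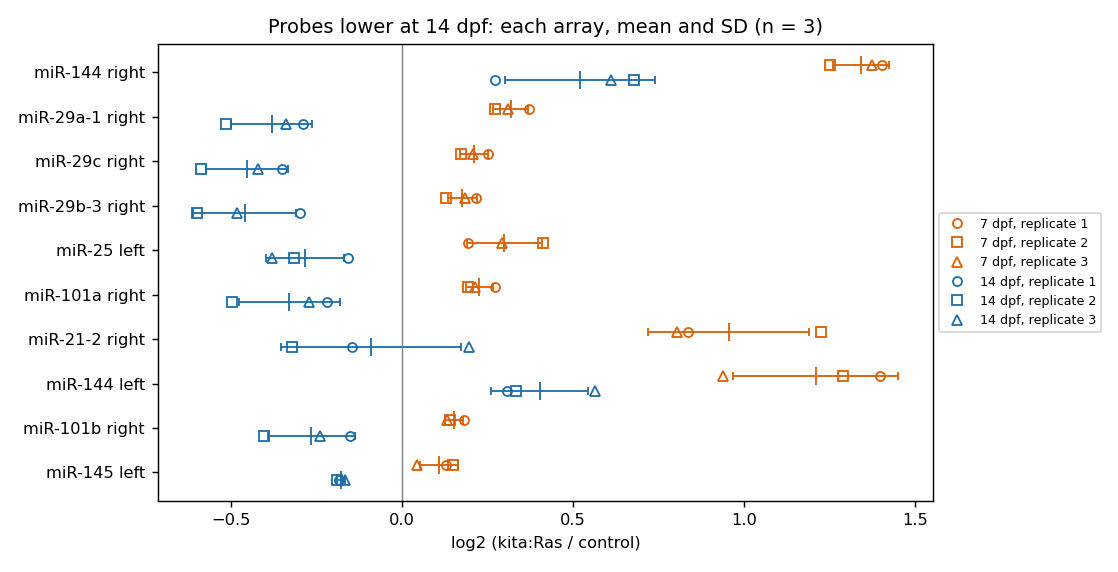
The 10 distinct strands with the lowest p or called among those lower at 14 dpf, with each array's log2 ratio of kita:Ras over control as an open symbol and the mean and SD (n = 3) as a bar. For miR-29a-1, miR-29c, miR-29b-3, miR-25, miR-101a and miR-101b every array lies above 0 at 7 dpf and below 0 at 14 dpf, and miR-144 stays above 0 at both ages.

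The signal of each channel, taken as log2 of the processed signal minus the array's median over the tested probes of both channels, gives the same strands without a ratio, as a description. miR-29a-1 right arm stood at 3.05 in kita:Ras and 2.73 in control larvae at 7 dpf, and at 2.05 and 2.43 at 14 dpf. The kita:Ras level thus changed by -1.01 and the control level by -0.31. For miR-101a right arm the kita:Ras level changed by -0.58 and the control level by -0.03. For miR-451, which is in the next paragraph, the kita:Ras level changed by -0.79 and the control level by 0.05. In these 3 strands the change over age was larger in the kita:Ras channel. For miR-146a left arm both levels were higher at 14 dpf, by 0.35 in kita:Ras and by 0.80 in control larvae, so the ratio of miR-146a fell while its kita:Ras level was higher.

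**Figure D3:**
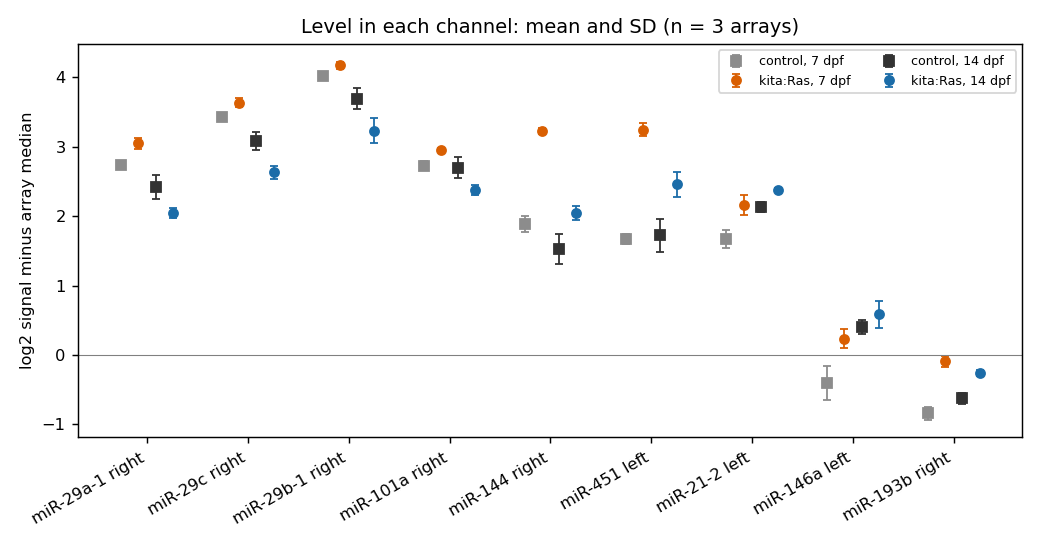
Level of 9 strands in each channel, as log2 processed signal minus the median of the array (mean and SD, n = 3 arrays), with control larvae as squares and kita:Ras larvae as circles. For the miR-29 strands and miR-101a the kita:Ras circle is above the control square at 7 dpf and below it at 14 dpf, whereas for miR-451 and miR-144 it is above at both ages and closer at 14 dpf.

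The erythroid miRNAs miR-144 and miR-451, which come from 1 precursor cluster that GATA1 activates in red blood cells, had the 3 highest ratios of kita:Ras over control of all tested probes at 7 dpf, and these ratios were lower at 14 dpf. All 3 of their tested probes were lower with an unadjusted p below 0.05 (26.6% of all tested) and non-overlapping arrays (36.6% of all tested). Only the right arm of miR-144 passed. Its ratio was 1.40, 1.25 and 1.37 at 7 dpf and 0.27, 0.68 and 0.61 at 14 dpf, a difference of -0.82 ± 0.12 (SE, limma adjusted p = 0.0469).
The left arm of miR-144 was at 1.40, 1.29 and 0.94 and then at 0.31, 0.33 and 0.57, a difference of -0.81 ± 0.14 (SE) that did not pass (limma adjusted p = 0.0689). miR-451 left arm, whose precursor is cut by Ago2 rather than Dicer, was at 1.75, 1.50 and 1.47 and then at 0.28, 1.10 and 0.82. Its difference of -0.84 ± 0.22 (SE) did not pass (limma adjusted p = 0.12). Both arms of miR-144 and miR-451 were still up at 14 dpf by the call rule for that age. The 3 erythroid probes had a median difference of -0.82, beside -0.10 over all tested probes. The 3 probes come from 2 hairpins.

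miR-101 and miR-25 complete the 9 calls. miR-101 is known in mammals for targeting EZH2, and both of its right arms gave a lower ratio. miR-101a right arm was at 0.27, 0.19 and 0.21 at 7 dpf and at -0.22, -0.49 and -0.27 at 14 dpf, a difference of -0.55 ± 0.09 (SE, limma adjusted p = 0.0469). miR-101b right arm had a difference of -0.42 ± 0.08 (SE) and did not pass (limma adjusted p = 0.0787), with arrays that do not overlap. Every array at 7 dpf lay above 0 and every array at 14 dpf below 0 for both strands. Neither miR-101 left arm was tested.
The left arm of miR-25, the dimmer arm of a miR-17-92 paralog, had ratios of 0.19, 0.41 and 0.29 and then of -0.16, -0.31 and -0.38, a difference of -0.58 ± 0.09 (SE, limma adjusted p = 0.0469). The right arm of miR-25, its brighter arm, had a difference of 0.13 ± 0.06 (SE) that did not pass (limma adjusted p = 0.229). Signal at the left arm was low, at 9.79 on the log2 scale, against 14.9 to 16.5 for the called strands of miR-29, miR-101a and miR-144. Under normexp background correction and loess the difference of miR-25 left arm was -0.28 and its adjusted p 0.161.

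The families of the miRNAs that the study follows as Ras-induced, miR-21, miR-146 and miR-193, had 0 calls and a median difference of -0.26. The study chose its miRNAs of these families, which leave out miR-193b, for being up at 3 dpf in its 3 models and at 7 dpf in kita:Ras larvae. That rule does not name 14 dpf. Choice by a high ratio at 7 dpf favours a lower ratio at 14 dpf, so their lower ratios are not independent evidence of direction. Of the 12 tested probes 6 (50%, beside 26.6% of all tested) had an unadjusted p below 0.05 with a lower ratio and 0 with a higher one, and without miR-193b it was 5 of 10. The difference was above 0 for miR-146b-1 right arm, at 0.26 ± 0.85 (SE), and for miR-193a left arm, at 0.01 ± 0.30 (SE). By the rule for single ages 7 of the 12 were up at 7 dpf and 4 at 14 dpf.
miR-21-2 left arm, the strand that accumulates, was at 0.41, 0.53 and 0.53 at 7 dpf and at 0.28, 0.20 and 0.28 at 14 dpf, a difference of -0.24 ± 0.06 (SE, limma adjusted p = 0.12). Its partner, the right arm, was at 0.84, 1.23 and 0.80 and then at -0.15, -0.32 and 0.20, a difference of -1.04 ± 0.18 (SE, limma adjusted p = 0.0617) that was -0.35 with normexp and loess. The right arm of miR-21-1 was lower still at 14 dpf replicate 2, at -2.36, and its difference was -1.75 ± 0.58 (SE, limma adjusted p = 0.144), or -1.12 without that array and -1.14 with normexp and loess. Left and right arms of miR-21 therefore had the same sign, with a larger change on the dim arm.
miR-146a left arm, known for targeting adaptors of Toll-like receptor signalling in mammals, was at 0.64, 0.75 and 0.52 and then at 0.46, 0.08 and 0.01, and its arrays did not overlap. The difference was -0.45 ± 0.14 (SE, limma adjusted p = 0.127). miR-146b-1 left arm had a difference of -0.38 ± 0.19 (SE, limma adjusted p = 0.248) and its arrays overlapped.
The right arm of miR-193b was at 0.86, 0.77 and 0.63 and then at 0.37, 0.24 and 0.49, a difference of -0.38 ± 0.10 (SE, limma adjusted p = 0.12). The right arms of miR-193a, for which 2 probes were tested, had differences of -0.26 each and remained up at both ages by the single-age rule.
miR-365, whose gene mir365-1 lies beside mir193b in the RefSeq annotation of zebrafish, was also lower. All 6 of its tested probes, which carry 3 distinct sequences, had a lower ratio with an unadjusted p below 0.05 (26.6% of all tested) and non-overlapping arrays (36.6% of all tested), and their median difference was -0.35. The right arm of miR-365-1 was at 0.82, 0.53 and 0.63 and then at 0.28, 0.17 and 0.33, and 0 of the 6 probes passed (limma adjusted p from 0.12). miR-204, known for its role in the pigment epithelium and the lens of the eye, was tested with 6 probes, none with an unadjusted p below 0.05. Of its 4 left arm probes, 3 of 1 sequence were up at both ages, with differences from -0.27 to -0.24, and the fourth was up at neither and had a difference of -0.16.

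The change was uneven between the arms of a hairpin. There were 131 hairpins with 1 left and 1 right probe tested, and within each the arm with the lower mean signal over both channels of the 6 arrays is called the dimmer arm. This split was made after the values were seen and is given without a test. It names the same arm in all 131 hairpins when only the control channel at 7 dpf is used. The dimmer arm was lower at 14 dpf with an unadjusted p below 0.05 in 65 of the 131 hairpins and higher in 0. The brighter arm was lower in 23 and higher in 2. Over all 410 tested probes 26.6% were lower and 1.46% higher at that p. Hairpins of 1 family can repeat a sequence, so these counts are not of independent strands. For miR-124 the 6 right arm probes carry 1 sequence and the 6 left arm probes 4. The median difference was -0.49 for the dimmer arms and -0.04 for the brighter arms.
The dimmer arm was the left one in 68 hairpins and the right one in 63, and the median difference was -0.51 and -0.41 respectively. In the fit across the 131 hairpins of left minus right arm, 0 hairpins passed (0%), and 46 had an unadjusted p below 0.05 (35.1%). In 45 of these the dimmer arm had the lower difference and in 1 the brighter arm. The smallest adjusted p was 0.111. When 14 dpf replicate 3 was left out, 31 hairpins passed, and 0 passed when any other replicate was left out. It was also 0 with normexp and loess, with the replicate block and with both channels above background on all 6 arrays.
On the single arrays, the median log2 ratio of the dimmer arms was -0.02, 0.17 and -0.12 in replicates 1 to 3 at 7 dpf, and -0.28, -0.73 and -0.26 at 14 dpf. That of the brighter arms stayed between -0.07 and -0.0056. With each array centred on its median, the median difference was -0.38 for the dimmer and 0.06 for the brighter arms. The 14 dpf replicate 2 array stands apart, with an SD of its log2 ratios of 0.784 against 0.257 to 0.444 on the other 5 arrays, and without it the count of dimmer arms with unadjusted p below 0.05 was 67 and the median difference -0.33. With normexp and loess the count was 36 and the median -0.27. With row on the slide as a block the count was 21 and the median -0.61. That fit sets the 14 dpf arrays against 7 dpf replicate 2 alone, where the median of the dimmer arms was 0.17.
By channel, the dim arms differed from miR-29. Relative to the array median, the control level of the dimmer arms had a median of -3.03, -3.14 and -3.05 at 7 dpf and of -2.76, -2.09 and -2.42 at 14 dpf, so it was higher on every array at 14 dpf. Their kita:Ras level was at -3.05, -3.00 and -3.09 and then at -3.26, -3.26 and -2.75, and the ages overlap. The median change over the 131 dimmer arms was 0.56 in the control channel and -0.04 in the kita:Ras channel, against -0.28 and -0.31 for the brighter arms. The lower ratio of the dim arms thus went with a higher control level, whereas that of the miR-29 right arms went with a lower kita:Ras level.

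**Figure D4:**
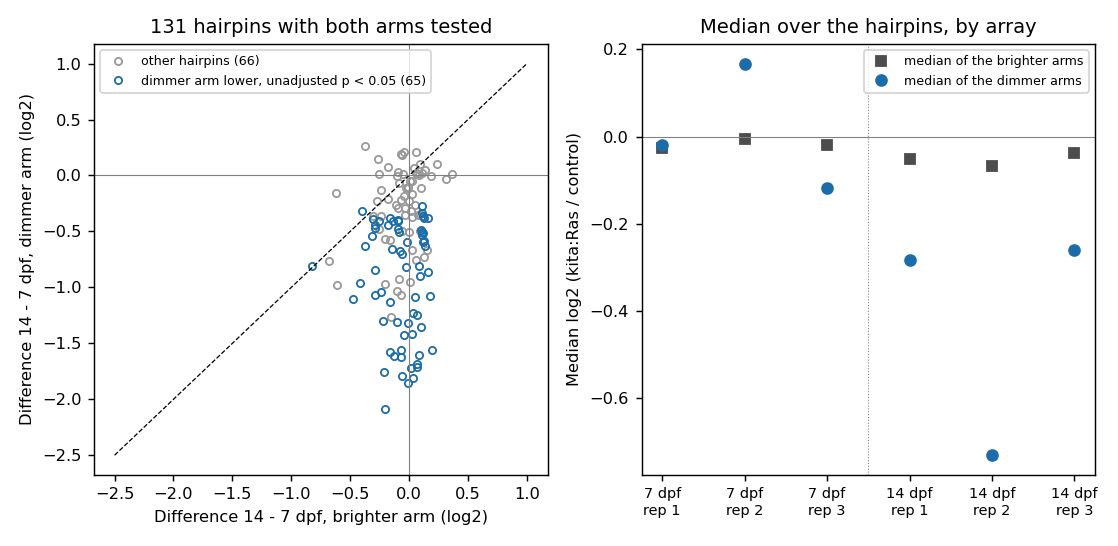
Left, each point is 1 of 131 hairpins, with the difference 14 minus 7 dpf of its brighter arm on the x axis and that of its dimmer arm on the y axis, both in log2 units. Right, the median log2 ratio of kita:Ras over control of the dimmer and of the brighter arms on each array, where the dimmer arms lie lowest on 14 dpf replicate 2, at -0.73.

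Examples from the brain, muscle and regulators of kit show the arm pattern by name, of which miR-124-2, miR-206-1 and miR-26b were chosen after their values were seen. With normexp and loess the differences of their dimmer arms were -0.96, -0.72 and -0.93, and that of miR-221 left arm was -0.84. miR-124, the most abundant neuronal miRNA family, had 6 left and 6 right probes tested. All 6 left arms were lower at an unadjusted p below 0.05 (26.6% of all tested), with differences between -1.81 and -1.23. The right arms, which carry the neuronal function, had differences between 0.03 and 0.10. In miR-124-2 left arm the ratios were -0.11, 0.33 and -0.10 at 7 dpf and -1.51, -2.98 and -0.54 at 14 dpf. Its right arm lay between -0.06 and 0.08 on all 6 arrays. The level of the left arm changed by -0.27 in the kita:Ras channel and by 1.45 in the control channel.
miR-9, expressed in neural progenitors, has 2 bright arms, at 16.4 for the right arm of miR-9-1, the dimmer one, and 17.3 for the left. The 5 right arms had differences between -0.38 and -0.27, all lower at an unadjusted p below 0.05 (26.6% of all tested). The left arms had differences between 0.11 and 0.16. Right arm of miR-9-1 was at -0.08, -0.18 and -0.16 and then at -0.47, -0.69 and -0.40. The 5 right probes carry 2 distinct sequences, so they are not independent.
The left arms of miR-221 and miR-222, whose right arms target KIT in human cells, had differences of -1.58 ± 0.42 and -1.42 ± 0.37 (SE, limma adjusted p = 0.127 and 0.12), while the right arms differed by -0.16 and -0.04. miR-221 left arm was at -0.04, 0.21 and 0.07 at 7 dpf and at -1.39, -2.39 and -0.70 at 14 dpf, with a level that changed by -0.06 in kita:Ras and by 1.51 in control larvae. These values are of 1 probe. A second left arm probe of miR-221, of another sequence, was not tested. Its control channel was well above background on 0 of 3 arrays at each age, and its kita:Ras channel on 2 at 7 dpf and 1 at 14 dpf. Its 2 right arm probes, miR-221 and mir-221, were lower at an unadjusted p below 0.05 (26.6% of all tested), with differences of -0.17 and -0.16.
In muscle, the left arms of miR-133, 4 probes, were all lower at an unadjusted p below 0.05 (26.6% of all tested), with differences between -0.59 and -0.49. The right arms, the strands that act in muscle differentiation, had differences between 0.10 and 0.12. For miR-206-1 the left arm had a difference of -1.56 and the right arm of 0.19. The largest fall of all tested probes was that of miR-26b right arm, the partner of a bright left arm, at -2.09, with ratios of -1.85, -3.82 and -0.81 at 14 dpf.

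Signal itself moved with the difference. Over the 410 probes split by mean signal into 4 bins of 102 or 103, the median difference was -0.36 in the dimmest bin, -0.26 in the next, -0.02 in the third and -0.01 in the brightest, and 8 of the 9 calls were in the brightest bin and 1, miR-25 left arm, in the second. For the predicted hairpins with signals in the same ranges the medians were 0.09, 0.06, 0.06 and 0.22, and 0 of the 1018 predicted probes tested were called (limma, 93 at unadjusted p below 0.05). Whether signal has a part in the difference of the dim arms was not tested.

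Tissue lists, chosen from families known for a tissue, describe the rest of the probes. Each list is set beside the 26.6% of all tested probes that were lower at an unadjusted p below 0.05 and the median of -0.10. In the brain and neuron list 25 of 58 probes were lower (43.1%) and 0 higher, with a median of -0.30. In the skeletal and heart muscle list 9 of 19 were lower (47.4%) and 0 higher, with a median of -0.21. The brain probes carry 32 distinct sequences and the muscle probes 13. With normexp and loess the medians were -0.17 and -0.20. In miR-1, miR-133 and miR-206 the lower probes were left arms, and the brighter right arms had differences between 0.10 and 0.19. In miR-499 the left arm was the brighter one, with a signal of 14.4 against 8.6. Its 2 left arm probes had differences of -0.21 and -0.17, and 1 of them was lower, with the lowest p of the muscle list (limma unadjusted p = 0.0134). Its 2 right arm probes had differences of -1.13 and -0.97, and 1 of them was lower. Of the lower brain probes 6 were left arms of miR-124 and 5 right arms of miR-9, the dimmer arms. Another 3 were left arms of miR-219 and 2 right arms of miR-132, the brighter arms. In the cartilage and mesenchyme list 6 of 16 were lower (37.5%), 4 of them probes of miR-145 and 2 of miR-143, and the median was -0.01. The 16 probes carry 11 distinct sequences, and those of miR-145 carry 1 for each arm. In the brain and muscle lists none of the probes passed the call rule.
miR-145, known for smooth muscle, had the lowest p of the cartilage and mesenchyme list. Its left arm was at 0.13, 0.15 and 0.04 and then at -0.18, -0.19 and -0.17, a difference of -0.29 ± 0.05 (SE, limma adjusted p = 0.0787). The arrays of the ages did not overlap.
Other blood cells were represented by the white blood cell list, in which 1 of 6 probes was lower. This was the left arm of miR-142b, a marker of hematopoietic cells, with a difference of -0.40 ± 0.10 (SE, limma adjusted p = 0.12), and the right arm of miR-142b had a difference of -0.10. The erythroid list was therefore lower in 3 of 3 probes and the white blood cell list in 1 of 6. In the endothelial list, with both arms of miR-126, 0 of 4 probes had an unadjusted p below 0.05, and the median was -0.06.
let-7, the family that rises with differentiation, had 21 tested probes with 0 lower and 1 higher at an unadjusted p below 0.05, which was the left arm of let-7j with a difference of 0.25 ± 0.10 (SE, limma adjusted p = 0.167). Its median difference was 0.06. The miR-15 and miR-16 list had 0 of 7 in each direction, with a median of 0.09. The miR-10, miR-99, miR-100 and miR-125 list had 3 of 27 lower.

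At 14 dpf few strands were higher than at 7 dpf and none passed. The lowest p was that of miR-210 right arm, the strand induced by hypoxia through HIF, at 0.03, 0.00 and -0.15 at 7 dpf and at 0.44, 0.28 and 0.26 at 14 dpf. Its difference was 0.36 ± 0.08 (SE, limma adjusted p = 0.12), and 0.22 with normexp and loess. By the single-age rule miR-210 right arm was up at 14 dpf and not at 7 dpf, and its left arm had a difference of 0.02.
miR-462, a miRNA of teleost fish, had a left arm at -0.65, -0.88 and -0.15 and then at 0.25, 0.20 and 0.19, a difference of 0.77 ± 0.19 (SE, limma adjusted p = 0.12) with both channels above background on 5 of the 6 arrays. In level, both channels were higher at 14 dpf, by 2.75 in kita:Ras and 1.98 in control larvae, so the ratio changed while the miRNA was higher with age in both genotypes. The left arm of miR-107, at -0.19, -0.17 and -0.51 and then at 0.75, 0.19 and 0.28, had a difference of 0.69 ± 0.18 (SE, limma adjusted p = 0.12). With normexp and loess these differences were 0.42 for miR-462 and 0.22 for miR-107. The tested miR-107 left arm probe was dim, with levels between -4.77 and -3.80 relative to the array median over both channels. A second left arm probe of miR-107 was not tested, since its control channel was above background on only 1 of 3 arrays at 14 dpf.
In the skin and other epithelia list 3 of 11 probes were lower at an unadjusted p below 0.05 (27.3%, beside 26.6% of all tested) and 1 was higher. The lower ones were the left arms of miR-200c and miR-203b, at -0.63 and -0.82, and the right arm of miR-205 at -1.31. A second left arm probe of miR-203b was not tested. Its control channel was above background on 2 of 3 arrays at 7 dpf and 0 at 14 dpf, and its kita:Ras channel on 3 and 2. The higher one, miR-429 right arm, of the miR-200 family that restrains the ZEB factors in mammals, had a difference of 0.22 ± 0.07 (SE, limma adjusted p = 0.146), and the right arms of miR-200b and miR-200c had differences of 0.15 and 0.14. miR-122 left arm, the liver miRNA, was at -0.27, -0.20 and -0.20 and then at 0.14, -0.06 and -0.04, a difference of 0.24 ± 0.07 (SE, limma adjusted p = 0.127). The right arms of miR-375, a pancreatic islet miRNA, were up at 14 dpf and not at 7 dpf by the single-age rule, but their differences of 0.33 and 0.35 had an adjusted p of 0.321 and 0.398 (limma) and were 0.17 and -0.04 with row on the slide as a block.

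**Figure D5:**
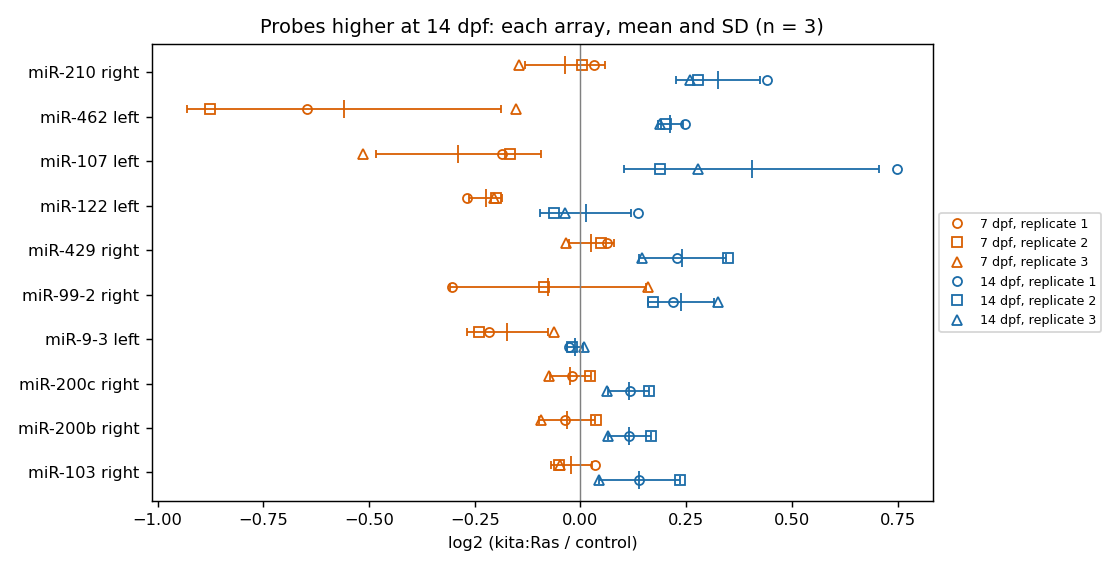
The 10 distinct strands with the lowest p among those higher at 14 dpf whose arrays do not overlap, with each array's log2 ratio as an open symbol and the mean and SD (n = 3) as a bar. None passed the adjusted threshold, and miR-462 and miR-107 have the widest spread, at 7 dpf and at 14 dpf respectively.

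The other 136 known probes, 69 left and 67 right arms, were not tested. For 36 of them neither channel was well above background on any of the 6 arrays. For 17, most of them left arms of miR-430, the control channel was above background on at least 2 of 3 arrays at both ages. In these 17 the kita:Ras channel was so only at 7 dpf. For 1 other probe with such a control channel, the kita:Ras channel was so only at 14 dpf. Conversely, for 11 the control channel was lost at 14 dpf and for 2 at 7 dpf while the kita:Ras channel stayed above background. Between 76.8% and 89.5% of the known spots were well above background in the kita:Ras channel and between 78.8% and 91.3% in the control channel on these 6 arrays. The log2 ratios of arrays of 1 age correlated with a Pearson r of 0.51 to 0.76 at 7 dpf and of 0.76 to 0.87 at 14 dpf, and of 0.12 to 0.61 between ages, over the 410 probes, which are not independent replicates.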

How the data were processed

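Total RNA of whole larvae was labelled and hybridised to a custom two-colour Agilent array with each probe spotted in duplicate. The authors deposited Feature Extraction output (version 10.7.3.1 in the file headers, 9.5.3.1 or 9.5 in the submitters' processing notes). The deposited intensities are processed signals after background subtraction and LOWESS dye normalization, and the deposited log10 ratio is red over green. It was turned into log2 of kita:Ras over control by changing its sign. The deposited value table equals the log10 ratio. Outlier spots were left out and spots of a probe averaged.

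The 6 arrays were fitted with limma 3.58.1 in R 4.3.3, with the 14 minus 7 dpf difference as the contrast, 4 residual and 1.54 prior degrees of freedom, two-sided. The p-values measure the spread between these pools, and the number of arrays limits the precision. Replicate numbers were not used to pair the ages. Named strands are, per direction, called probes and then those of smallest p with non-overlapping arrays, up to 10 distinct sequences, with the miR-21, 29, 144, 146, 193, 204 and 451 families and up to 4 probes of smallest p per list. miR-124-2, miR-206-1, miR-26b right arm, miR-9-1 left arm and miR-222 right arm were added after their values were seen. The members, lists and tests were chosen with earlier results of these data known. The dimmer and brighter arms were set after the values were seen. miRNA genes were taken as neighbours from the RefSeq annotation (GRCz12tu).

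The fit was tested on simulated data for 14 against 7 dpf over 410 probes. With 20 changed probes it recovered 60% of changes of size 1 and 100% of size 2 (log2) with 0 false calls, and with 200 changed, 86% and 98% with 5 false calls. The simulated noise was independent between probes and arrays. It held no shared sequences, no shifts of a whole array and no row on the slide, so false calls under these were not tested. Alternatives were other fits, filters, normalizations and blocks, and each replicate left out. Python 3.11.15, numpy 2.4.6, pandas 2.3.3, scipy and matplotlib 3.10.9 were used.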

Additional observations from a re-analysis of the deposited data

Results flagged for a closer look

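The ratio of kita:Ras over control differed between the 2 ages by the test of the difference itself for 9 probes (2.2% of the 410 tested), all lower at 14 dpf. The differences were -0.82 for miR-144 right arm, -0.70 for miR-29a-1, -0.68 for miR-29a-2, -0.66 for miR-29c, -0.64 for miR-29b-3, -0.62 for miR-29b-2 and -0.61 for miR-29b-1 (right arms), -0.58 for miR-25 left arm and -0.55 for miR-101a right arm, on the log2 scale. These are 6 distinct sequences, with n = 3 arrays at each age. With identical sequences averaged, 2 of 301 sequences were called. The arrays of the ages do not overlap for any of the 9 probes, and 36.6% of all tested probes were lower without overlap.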

How the results depend on the processing

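Of 2513 values of the named probes under alternative settings, 2333 kept their direction and side of the threshold, 92 fell below it, 53 passed it and 35 reversed. The reversals concern 15 probes that were not called. With each array centred on its median the difference was 0.043 for miR-96 left arm, 0.0087 for miR-142b right arm, 0.10 for both miR-126 right arm probes, 0.014 for miR-217-1 left arm, 0.10 for miR-34c left arm and 0.064 for miR-222 right arm. With normexp and loess it was -0.0018 for miR-193a left arm, 0.0092 for miR-204-2 right arm, 0.019 for miR-34c left arm and 0.0082 for miR-222 right arm. With row as a block it was -0.69 for miR-193a left arm, -0.043 for miR-375-2 right arm, -0.14 for miR-210 left arm and 0.018 for miR-222 right arm. With each replicate left out in turn the difference ranged from -0.19 to 0.36 for miR-193a left arm, from -0.55 to 1.14 for miR-146b-1 right arm, from -0.066 to 0.27 for miR-204 right arm, from -0.18 to 0.0068 and from -0.23 to 0.025 for the miR-126 left arms, from -0.035 to 0.0098 and from -0.035 to 0.016 for the miR-126 right arms, from -0.16 to 0.015 for miR-217-1 left arm, from -0.14 to 0.20 for miR-34c left arm, from -0.074 to 0.14 for miR-210 left arm and from -0.12 to 0.0090 for miR-222 right arm.

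The number of probes lower at 14 dpf was 56 with all 16 larval arrays in 1 fit, of which 6 were among the 9, and 19 with a trended robust prior. It was 0 with either channel above background (469 probes), with no filter (546 probes), with row on the slide as a block, with adjustment over known and predicted probes and at an adjusted p below 0.01, 2 with identical sequences averaged (301 probes), and 93 at an unadjusted p below 0.05 with the fold threshold. Leaving out 1 replicate gave 0 to 17. The number higher was 1 with 16 arrays and 3 at an unadjusted p below 0.05. It was 0 when each replicate was left out.

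The number up at 7 dpf was 15 with row as a block and 15 to 33 with a replicate left out. The number down at 7 dpf was 6 with 16 arrays, 5 with the 8 kita:HRAS arrays, 4 with normexp and loess, 0 with either channel above background and with no filter, 5 with both channels above background on all 6 arrays, 8 with the trended prior, 0 with row as a block and with identical sequences averaged, 6 adjusted over known and predicted probes, and 0 to 13 with a replicate left out. The number up at 14 dpf was 46 with arrays centred on their median, 0 with row as a block, and 9 to 21 with a replicate left out. The number down at 14 dpf was 0 with row as a block and 32 to 96 with a replicate left out. The counts at each age with row as a block are of values in the first row and not of the age means. Arms that moved apart numbered 0 to 31 with a replicate left out. The cause of these changes was not tested, and the smaller fits have fewer residual degrees of freedom.

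The replicate numbers were not treated as pairs in the main fit. Deviations from the mean of an age correlated at -0.23, -0.31 and -0.10 for same-numbered arrays, and between -0.29 and 0.37 for the others. With 3 arrays at each age the deviations sum to 0, which ties these correlations to each other. Whether the numbers pair the samples was not tested. With the replicate block 0 probes were lower, 0 were up at 7 dpf, 0 down at 7 dpf, 0 up at 14 dpf and 0 down at 14 dpf. The counts at each age with this block are of the fitted value of replicate 1 and not of the age mean. Centring moved the median difference from -0.10 to 0.01.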
